A study of Mus musculus and Homo sapiens with 65 samples.

Results

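The transcriptome of wild-type late 2-cell mouse embryos is described here gene by gene, in order of abundance. Members were chosen by label: the 3 RNA-seq libraries titled wild-type 2-cell, out of 9 RNA-seq libraries with gene tables and 65 samples in the whole series. These embryos carried no morpholino and no toxin. Per the labels' protocols, embryos grew in G1 plus medium until late in the 2-cell stage. Total RNA was taken with the RNeasy Micro kit of QIAGEN, and TruSeq libraries were prepared from it. The labels of these libraries give no strain, no number of embryos per library, and no statement that the replicates were separate collections. The spread between libraries may therefore be partly technical. Only 1 group is described, so nothing was compared with another condition and no test was run.

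A mouse embryo begins life on RNA and protein made by the growing egg, because transcription stops before ovulation and resumes only after fertilization. During the 2-cell stage the embryo clears much of that inherited RNA and starts broad transcription of its own genome, including families of genes that are active almost nowhere else. Both kinds of transcript are thus found side by side at this stage, and a level alone does not say which of the sources a transcript came from. No cell has yet taken a lineage: trophectoderm, inner cell mass, primitive endoderm and the germ layers arise later.

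Each library's table gives the level of 32287 genes in FPKM, which divides a gene's fragment count by transcript length and library size. It is scaled by length, so levels of different genes can be set side by side, and a share of summed FPKM is close to a share of transcript molecules rather than of reads. The 31576 genes with a quantification status of OK in all 3 libraries were used. Read counts are not part of these tables, so the depth in reads is unknown. A gene is called detected here when it reached 1 FPKM in every library, and 8561 genes (27.1%) did so. Of these, 3326 reached 10 FPKM and 188 reached 100 FPKM in every library. A further 10797 genes (34.2%) were listed at 0 in all 3 libraries. Single libraries had 10740, 10625 and 10816 genes at 1 FPKM or more, and between 916 and 948 genes reached that level in 1 library alone.

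The labelled stage was checked against markers. Of 15 usable 2-cell markers, 13 were detected, led by the zinc finger gene Zfp352 at 92.0, 79.3 and 99.4 FPKM in replicates 1, 2 and 3. The next were Tcstv3, at 51.7, 63.0 and 94.4 FPKM, and Tcstv1, at 44.3, 47.3 and 61.7 FPKM. Of 8 egg markers, 7 were detected. Markers of cells that can cling to a collected embryo were close to empty: 0 of 7 cumulus markers, 0 of 6 sperm markers and 0 of 5 blood markers were detected. The oviduct and stroma set had 1 of 5, Pecam1, at 11.1, 3.88 and 13.2 FPKM. Of the later lineages, 1 of 5 trophectoderm markers and 1 of 4 primitive endoderm markers were detected. A few absent markers were not at 0 in every library. The haemoglobin gene Hba-a1 stood at 4.62, 0.286 and 0.279 FPKM, and Tnp1, which encodes a spermatid transition protein, was listed at 0, 0 and 5.44 FPKM.

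The 100 genes with the largest median FPKM held 22.5% ± 2.79 of summed FPKM (SD, n = 3). Ranking each library on its own, 50% of summed FPKM lay in 717, 827 and 756 genes, and the 1000 most abundant genes held 55.3% ± 1.13 (SD, n = 3). The transcriptome was thus spread over many moderately abundant genes, with a short steep head. That head differed between libraries: the most abundant gene alone took 7.28%, 3.02% and 6.56% of summed FPKM. Replicate 2 was the flattest library at the top, and its 10 most abundant genes held 7.78%, against 13.2% and 12.2% in replicates 1 and 3.

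**Figure D1:**
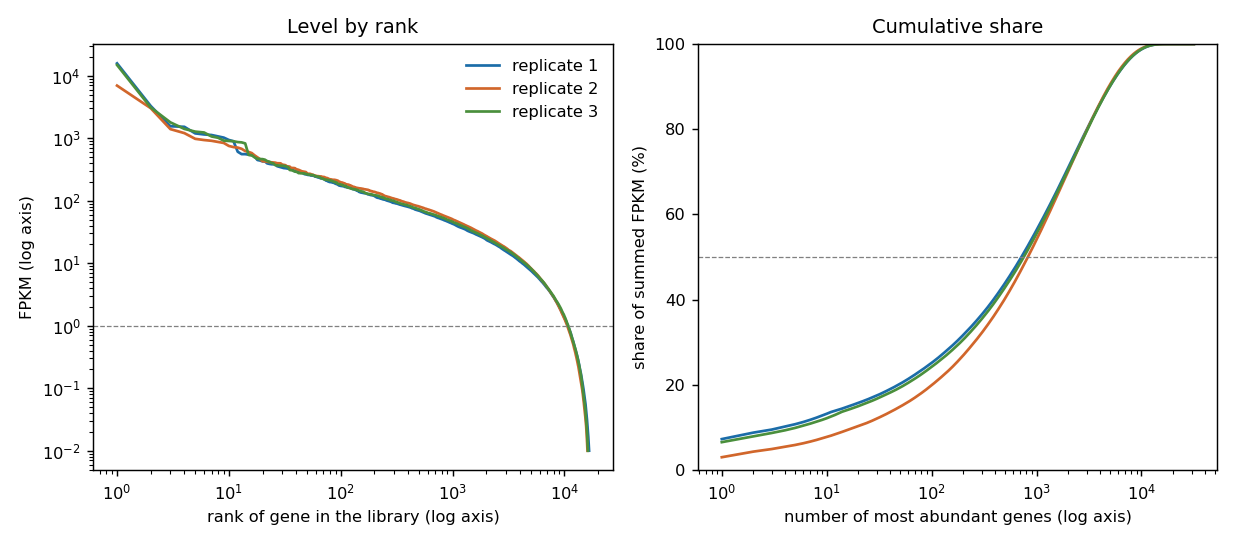
Level of each gene against its rank in the library (left, both axes logarithmic) and cumulative share of summed FPKM (right, logarithmic x axis) for the 3 wild-type libraries, 1 line each. The curves lie together below the first few ranks, and replicate 2 starts lower, with 3.02% of summed FPKM in its most abundant gene.

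The first rank in every library belonged to Yam1, at 15754, 6941 and 14841 FPKM (12512 ± 4846, SD, n = 3), and replicate 2 stood well below the others. Its row (ENSMUSG00000098178.1, mm10 chromosome 17, 39846958 to 39848788) is not a plain non-coding RNA gene. GENCODE M21 names it Gm42418, a long intergenic non-coding RNA, and places an annotated ribosomal RNA gene, CT010467.1, over all 1831 of its bases on the opposite strand. RefSeq has an rRNA-related pseudogene, Rn18s-rs5, over 1245 of these bases. Rn18s-rs5 lies on the same strand as Yam1, so strand would not separate their reads. The sources used here do not say whether counting used strand, without which reads of Yam1 and CT010467.1 cannot be told apart either. The files hold no rows for mitochondrially encoded genes. Without Yam1, the 100 most abundant of the remaining genes held 18% ± 1.04 of summed FPKM. That alternative was chosen after its level was seen.

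Zbed3 ranked second in each library, at 3281, 3024 and 3101 FPKM. Zbed3 (ENSMUSG00000041995.7, chromosome 13, 95325237 to 95337841) encodes a BED zinc finger protein that is part of the subcortical maternal complex, an assembly of egg proteins beneath the embryo's surface. Its libraries agreed closely: the SD was 4.21% of the mean, although each value lay just below its own lower bound (3306 FPKM in replicate 1), as did Spin1. The lowest Zbed3 value was above every value of any other protein-coding gene. Omt2a stood at 1148, 1397 and 1275 FPKM and Omt2b at 1022, 1206 and 1235 FPKM. These small genes, known for high expression in the maturing oocyte, lie side by side on chromosome 9, 12791 bases apart. Omt2a was above Omt2b in each of the 3 libraries, although their ranges over libraries overlap.

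Transcript start regions were available for part of the gene lists, and a short motif recurred in those of several egg and 2-cell genes. The sequence ATATAAGG was noticed among them and then searched, so its counts are a description of these lists. It was looked for on both strands in 300 bases around each start, 250 before and 50 after (RefSeq, GRCm38.p6), and occurred in 0.776% of 32851 such promoters of all genes and in 0.902% of those of detected genes. It occurred in 7 of 34 promoters matched for the 2-cell list and 3 of 8 for the list of Obox and related homeobox genes. The oogenesin and Omt2 list had it in 3 of 18, and the subcortical maternal complex list in 1 of 16. Promoters were matched for 30 of 44, 6 of 8, 18 of 19 and 12 of 15 genes of these lists. It occurred in 2 of 31 promoters of the germ layer list and 1 of 102 of the 100 most abundant genes. In the Tcl1, zona, housekeeping and translation factor lists it occurred in 0 of 8, 0 of 6, 0 of 29 and 0 of 43 promoters. The shorter TATAAA, also searched on both strands, is not contained in ATATAAGG but can share bases with it, and occurred in 13.6% of all promoters, 6.89% of those of detected genes and 35.3% of those of the 2-cell list.

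In 13 distinct promoters of the first 4 of these lists the motif lay in the 55 bases before the annotated start, with its first base 18 to 50 bases upstream. The 7 windows below were picked after the sequences were seen, because several of their flanks resemble each other while the levels of their genes run from 3101 to 1.30 FPKM by median. Capitals mark ATATAAGG, each line reads 5′ to 3′ in the direction of the gene, and every window ends before the start. The positions are chr13:95323548-95323600 (plus strand) for Zbed3, chr4:90218764-90218816 (plus) for Zfp352, chr1:85603894-85603946 (minus) for Sp110, chr4:101844025-101844077 (minus) for B020004J07Rik, chr10:104193984-104194036 (plus) for Gm4340, chr7:15750313-15750365 (plus) for Obox5 and chr7:15639781-15639833 (minus) for Obox3.
Zbed3: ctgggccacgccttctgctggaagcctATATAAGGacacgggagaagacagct
Zfp352: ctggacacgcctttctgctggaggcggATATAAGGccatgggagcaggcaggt
Sp110: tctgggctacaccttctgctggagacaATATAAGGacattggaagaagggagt
B020004J07Rik: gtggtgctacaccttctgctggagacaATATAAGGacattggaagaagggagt
Gm4340: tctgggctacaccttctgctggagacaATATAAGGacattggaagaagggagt
Obox5: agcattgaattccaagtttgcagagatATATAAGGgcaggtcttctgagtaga
Obox3: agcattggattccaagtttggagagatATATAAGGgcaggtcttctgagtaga

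Outside the motif, the Sp110 and Gm4340 windows had the same base at 45 of 45 positions, and each matched B020004J07Rik at 41. Obox5 and Obox3 matched at 43 of 45, and Zbed3 and Zfp352 at 31 of 45. Of these genes, Sp110 stood at 74.7, 65.9 and 112 FPKM, B020004J07Rik at 23.2, 29.7 and 20.6 FPKM, and Gm4340 at 2.51, 1.30 and 0.691 FPKM. The windows were picked with these levels in view, so whether like windows go with like levels was not tested. Reads from near-identical copies of such genes may also have been divided between them. The RefSeq start used for Zbed3 lies upstream of the start of its row in the files. A match of letters is no evidence of a bound factor or an active start.

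Among the other genes of the first 10 ranks, Vimp had the 3rd largest median but poor agreement. Vimp, a selenoprotein of the endoplasmic reticulum now named Selenos, stood at 1553, 353 and 1408 FPKM, so its rank was 3, 34 and 4. Rbm38, an RNA-binding protein that controls mRNA stability downstream of p53, stood at 1521, 935 and 1066 FPKM. Mdm4, an inhibitor of p53, was steadier at 937, 977 and 904 FPKM. Spin1, a reader of methylated histone H3 that is known as an abundant egg transcript, stood at 1071, 909 and 868 FPKM. The coiled-coil gene Ccdc6 stood at 894, 840 and 914 FPKM. The long non-coding RNA Gm1965 stood at 1125, 873 and 1017 FPKM and lies 63779 bases from another abundant one, Gm839, at 223, 312 and 240 FPKM. From Rbm38 to Ccdc6 the ranges of neighbouring ranks overlap, and while Rbm38 was above Gm1965 in each library, the order of Mdm4, Spin1 and Ccdc6 changed between libraries.

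Ranks 11 to 40 held further egg genes and a mixed set of regulators. Khdc1b, a KH domain gene of the oocyte, stood at 608, 623 and 541 FPKM. Dppa3, also called Stella, which protects the maternal genome from loss of DNA methylation, stood at 439, 708 and 534 FPKM. Btg4, an adaptor that brings maternal mRNA to the CCR4-NOT deadenylase, stood at 381, 371 and 305 FPKM, and Pan3, a subunit of another deadenylase, stood at 307, 270 and 298 FPKM. These genes of RNA turnover were thus themselves among the most abundant transcripts. Eif4g2, a translation initiation factor used in cap-independent initiation, stood at 383, 418 and 357 FPKM.

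Components of the ubiquitin system recurred in this range. Ube4b, Trip12, Cul1, Ube2k and Cul3 were among them, a grouping made after their ranks were known. The ubiquitin ligase Ube4b was the steadiest of these, at 448, 428 and 453 FPKM. Cul1, scaffold of the SCF ligases, stood at 331, 426 and 362 FPKM, while Cul3, scaffold of another ligase family, ranged from 199 to 365 FPKM. Cytoskeletal and signalling regulators included the actin regulator Wasf2 (545, 307 and 430 FPKM), the microtubule-affinity kinase Mark2 (345, 531 and 396 FPKM), the MAP kinase phosphatase Dusp7 (509, 334 and 463 FPKM), the kinase Wnk1 and the pseudokinase Peak1. Atp5b, the beta subunit of mitochondrial ATP synthase, stood at 337, 579 and 464 FPKM. It was far above every other Atp5 gene, of which the next, Atp5a1, stood at 18.9, 45.8 and 31.4 FPKM. Other genes of these ranks included Mtus1, Gpbp1, Lars2, Auts2, Foxj3, Tpr, Pld1, Sepw1, 2010107G23Rik, D6Ertd474e, Trim61, Anp32b-ps1 and RP23-374K9.2. Trim61 is uncertain by name, because its identifier, ENSMUSG00000079042.4, belongs to Apela in GENCODE M21.

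**Figure D2:**
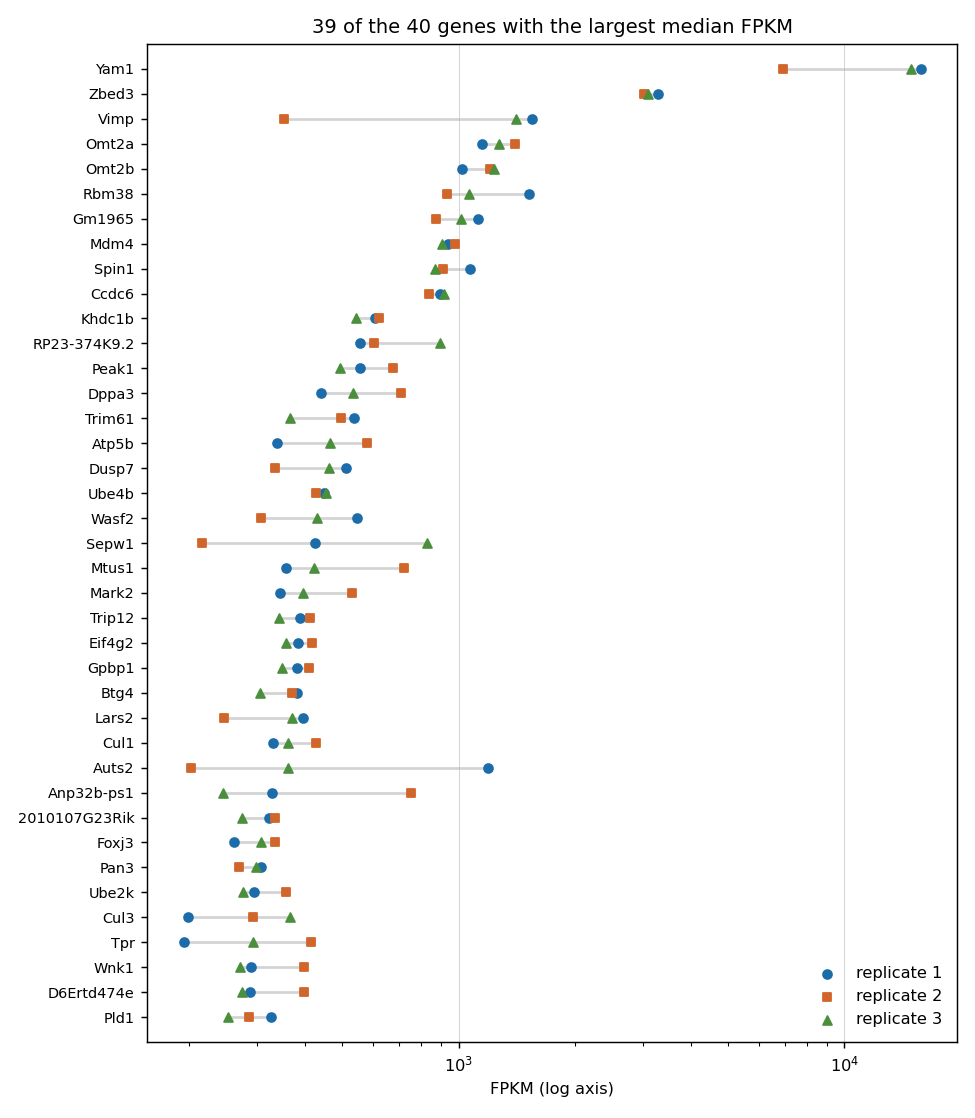
FPKM on a logarithmic axis of 39 of the 40 genes with the largest median, with 1 symbol per library and a grey line from the lowest to the highest value. Zbed3, Mdm4 and Ube4b have symbols that nearly coincide, while Vimp, Sepw1, Auts2 and Anp32b-ps1 are spread widely.

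Several top values carried a warning in the files themselves. The tables give a lower and an upper bound for each FPKM, and 27 of the 100 most abundant genes exceeded their upper bound in all 3 libraries, against 3.20% of detected genes. Auts2 was an extreme case: replicate 1 listed 1194 FPKM with bounds of 95.9 and 122 FPKM, and the other libraries listed 202 and 361 FPKM. Mdm4, at 937 FPKM in replicate 1, had an upper bound of 832 FPKM there. Among genes inside their bounds in all 3 libraries, the 100 most abundant held 15.6% ± 0.367 of summed FPKM. Which of the values, the FPKM or its bounds, is nearer to the true level was not tested.

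By class, 7712 of the detected genes (90.1%) were protein-coding, 536 were processed pseudogenes and 219 were long non-coding RNA genes of several GENCODE types. Protein-coding genes held 84.2% ± 1.64 of summed FPKM, processed pseudogenes 6.96% ± 0.626 and long non-coding RNA genes 7.77% ± 2.26 (SD, n = 3). Yam1 made up most of the last share. Of the 100 most abundant genes, 4 were long non-coding RNA genes: Yam1, Gm1965, D6Ertd474e and Gm839. The X chromosome had 255 of 937 protein-coding genes detected (27.2%), against 7457 of 20118 (37.1%) on the autosomes, while detected X genes had a median of 9.46 FPKM against 9.81 FPKM. Xist, the RNA that coats the inactive X, stood at 1.87e-08, 6.41e-23 and 1.70 FPKM, so it was under the threshold in 2 of the 3 libraries. The X-linked helicase gene Ddx3x stood at 168, 295 and 172 FPKM, and the deubiquitinase Usp9x at 203, 152 and 152 FPKM.

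Abundant genes included short runs of chromosomal neighbours. Among the 300 most abundant genes, 14 pairs of neighbours in that set lay within 100 kb of each other. They included the oocyte genes Khdc1a, Khdc1c and Khdc1b on chromosome 1, the genes Tcl1b1, Tcl1b3 and Tcl1 on chromosome 12, and Omt2a with Omt2b on chromosome 9. Others joined genes of different families, such as Stk11, a kinase upstream of AMPK, with Midn on chromosome 10 and Selt with Siah2 on chromosome 3. No expected number was computed, and members of 1 family are similar in sequence and may share reads.

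Gene lists are given next, each as the count of members detected, the median level over all members with status OK, and its leading members. The same figures over all 31576 genes are 27.1% detected and a median of 0.0176 FPKM. That share takes in pseudogenes and non-coding genes, and of protein-coding genes alone 36.6% were detected. Genes known from the egg were broadly present. Of the subcortical maternal complex list, 14 of 15 were detected, with a median of 21.5 FPKM. This list alone held 1.87% ± 0.136 of summed FPKM (SD, n = 3), most of it from Zbed3. It also holds oocyte genes of the Khdc1 group and the wider Nlrp family, so its figures are not those of the complex alone. After Khdc1b came Khdc1c, at 145, 128 and 154 FPKM, and Khdc1a, at 100, 94.1 and 144 FPKM. Nlrp5, the founding member of the complex also called Mater, was at a moderate 21.1, 21.5 and 22.8 FPKM. Its median was that of the list, and several members lay below it. Among these, Tle6 stood at 12.6, 11.1 and 12.49 FPKM and Padi6 at 12.7, 5.64 and 7.19 FPKM. Ooep stood at 9.54, 5.12 and 5.48 FPKM, and Khdc3, the member not detected, at 0.982, 0.79 and 8.86 FPKM. The level of the list was thus uneven, with its highest values in Zbed3 and Khdc1b.

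The egg's secreted products were uneven. Of 10 zona and growth factor genes, 8 were detected, with a median of 16.6 FPKM. Oosp1, an oocyte secreted protein, stood at 243, 215 and 247 FPKM, Bmp15, a growth factor by which the oocyte signals to its follicle, at 229, 154 and 219 FPKM, and its partner Gdf9 at 75.7, 52.1 and 63.5 FPKM. The zona pellucida genes were lower, with Zp3 at 14.8, 20.04 and 23.9 FPKM. All values of Bmp15 lay above all values of Gdf9, and all of Gdf9 above all of Zp3.

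Oocyte transcription regulators had 13 of 16 detected and a median of 19.1 FPKM. After Dppa3 came Zfp57, which with Trim28 guards imprinted methylation, at 237, 246 and 167 FPKM, Foxo3, a brake on follicle activation, at 131, 142 and 142 FPKM, and Trim28 at 116, 76.4 and 116 FPKM. Of the meiosis and egg arrest genes, 17 of 22 were detected, with a median of 9.92 FPKM. Wee2, the oocyte form of the kinase that restrains CDK1, stood at 240, 213 and 143 FPKM, and Sycp3, a structural protein of meiotic chromosomes, at 62.8, 65.9 and 55.8 FPKM. Mos, the kinase that holds the egg in metaphase, was near absent at 0.182, 0 and 0.485 FPKM.

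The Tcl1 family, small activators of the kinase AKT, had the highest median of the 40 lists, 82.6 FPKM, with 7 of 8 rows detected. Tcl1b1 led at 264, 156 and 228 FPKM, and the family was lowest in replicate 2 for Tcl1b1, Tcl1b3, Tcl1, Tcl1b4 and Tcl1b2. The oogenesin and Omt2 list had 17 of 19 detected and a median of 8.79 FPKM. Below the Omt2 pair, Oog3 stood at 243, 166 and 145 FPKM and Pramef12 at 36.2, 86.6 and 91.1 FPKM. The list thus holds a few of the most abundant genes beside many modest ones.

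Genes known for activity at the 2-cell stage were present at middling levels, and whether their RNA came from egg or embryo was not tested. Of 44 genes of the 2-cell list, 35 were detected and 23 reached 10 FPKM in every library, with a median of 15.0 FPKM, yet none reached 100 FPKM in all 3. After Zfp352 came Sp110, a nuclear body gene, then Rfpl4 at 109, 71.7 and 67.9 FPKM and AF067063 at 46.1, 66.2 and 69.4 FPKM. Zscan4d, the form of the telomere-linked Zscan4 genes typical of the 2-cell embryo, stood at 13.2, 13.2 and 10.2 FPKM. The members Gm13040, Gm13043, Gm13057 and Tdpoz5, were listed at 0 in every library. Zscan4, Tdpoz, Usp17l and Tcstv genes are families of near-identical copies, so the level of a single member is uncertain.

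The Obox homeobox genes, which act at the start of zygotic transcription, were all detected, 5 of 5, with a median of 23.3 FPKM. With the related homeobox genes Crxos, Nobox and Duxbl1 the list had 7 of 8 detected and a median of 21.7 FPKM, and Duxbl1 was the member that fell short. Obox5 stood at 123, 80.5 and 111 FPKM, Obox3 at 57.1, 33.6 and 51.0 FPKM and Obox1 at 23.3, 21.9 and 28.4 FPKM. Crxos stood at 51.1, 92.3 and 52.3 FPKM. Obox5 lay above Obox3, and Obox3 above Obox1, in every library.

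Translation, ribosome assembly, transcription and splicing lists were mostly detected, with higher medians than the ribosomal protein genes given further on. Translation factors had 43 of 47 detected and a median of 22.6 FPKM, with the poly(A)-binding protein gene Pabpc1 at 89.4, 151 and 159 FPKM and Eif6, which keeps ribosomal subunits apart, at 62.4, 158 and 107 FPKM. Ribosome biogenesis had 66 of 71 detected and a median of 19.6 FPKM, led by Imp4, of the small-subunit processome, at 253, 316 and 212 FPKM and by Gar1, of the pseudouridylation complex, at 135, 144 and 117 FPKM. RNA polymerase II subunits had 12 of 13 detected, led by Polr2b at 83.8, 61.7 and 100 FPKM. Splicing factors had 51 of 53 detected, a median of 13.2 FPKM, and Srsf2 at the top at 141, 196 and 151 FPKM.

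Handling of stored RNA was as well represented, with 50 of 55 listed genes detected and a median of 16.4 FPKM. Eif4enif1, which holds the cap-binding factor off translation, stood at 185, 378 and 242 FPKM, Lsm14a, of cytoplasmic RNA granules, at 199, 247 and 208 FPKM, and Cnot7, a CCR4-NOT deadenylase, at 187, 244 and 224 FPKM. Small RNA pathway genes were low, with 14 of 22 detected, a median of 3.10 FPKM and a highest member, Dicer1, of 20.3, 22.9 and 18.8 FPKM.

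Chaperones had 40 of 43 detected and a median of 17.4 FPKM, with Hsp90b1 of the endoplasmic reticulum at 231, 270 and 173 FPKM. The list also counts Vimp, described above as a selenoprotein of the endoplasmic reticulum rather than as a chaperone. Vimp leads the list and is its most variable leading member. Ubiquitin enzymes of the egg had 30 of 36 detected and a median of 12.48 FPKM. The proteasome list was uneven, with 35 of 48 detected and a median of 6.96 FPKM. Its top members were activators rather than core subunits: Psme3 stood at 322, 150 and 217 FPKM and Psme4 at 131, 119 and 122 FPKM, while the core subunit gene Psmb4 stood at 65.5, 76.2 and 103 FPKM.

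Chromatin regulators were broadly detected. Polycomb and heterochromatin genes had 25 of 29 detected and a median of 14.6 FPKM, led by Suz12, a core subunit of the H3K27 methyltransferase complex, at 196, 227.4 and 182 FPKM. Genes of H3K4 methylation had 17 of 19 detected, led by the methyltransferase Kmt2c at 108, 168 and 126 FPKM. The DNA methylation list had 15 of 19 detected, with Tet3, the oxidase that acts on the paternal genome in the zygote, at 132, 108 and 96.1 FPKM. Histones and their chaperones had 22 of 32 detected, led by Atrx at 132, 216 and 131 FPKM and Hist1h2aa at 163, 109 and 93.4 FPKM. Histone mRNAs of S phase lack a poly(A) tail, and the sources used here do not say whether tailed RNA was selected.

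Cell cycle genes had 42 of 49 detected and a median of 14.2 FPKM, with Ccna2, the cyclin of S phase and mitotic entry, at 209, 300 and 219 FPKM, Mki67 at 102, 140 and 104 FPKM, and the CDK inhibitor Cdkn1a at 89.7, 36.0 and 102 FPKM. Glycolysis and pyruvate use had 21 of 39 detected and a median of only 3.64 FPKM, and its leading members were Ldhb, at 52.8, 106 and 63.9 FPKM, and the mitochondrial pyruvate genes Pdhb, at 21.7, 53.7 and 52.7 FPKM, and Mpc2, at 35.3, 43.5 and 45.5 FPKM. Gapdh was at 0.484, 0 and 0.0396 FPKM. Housekeeping genes had 24 of 28 detected and a median of 19.9 FPKM, led by the ferritin gene Fth1 at 111, 240 and 108 FPKM and by Tbp at 83.2, 101 and 105 FPKM.

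**Figure D3:**
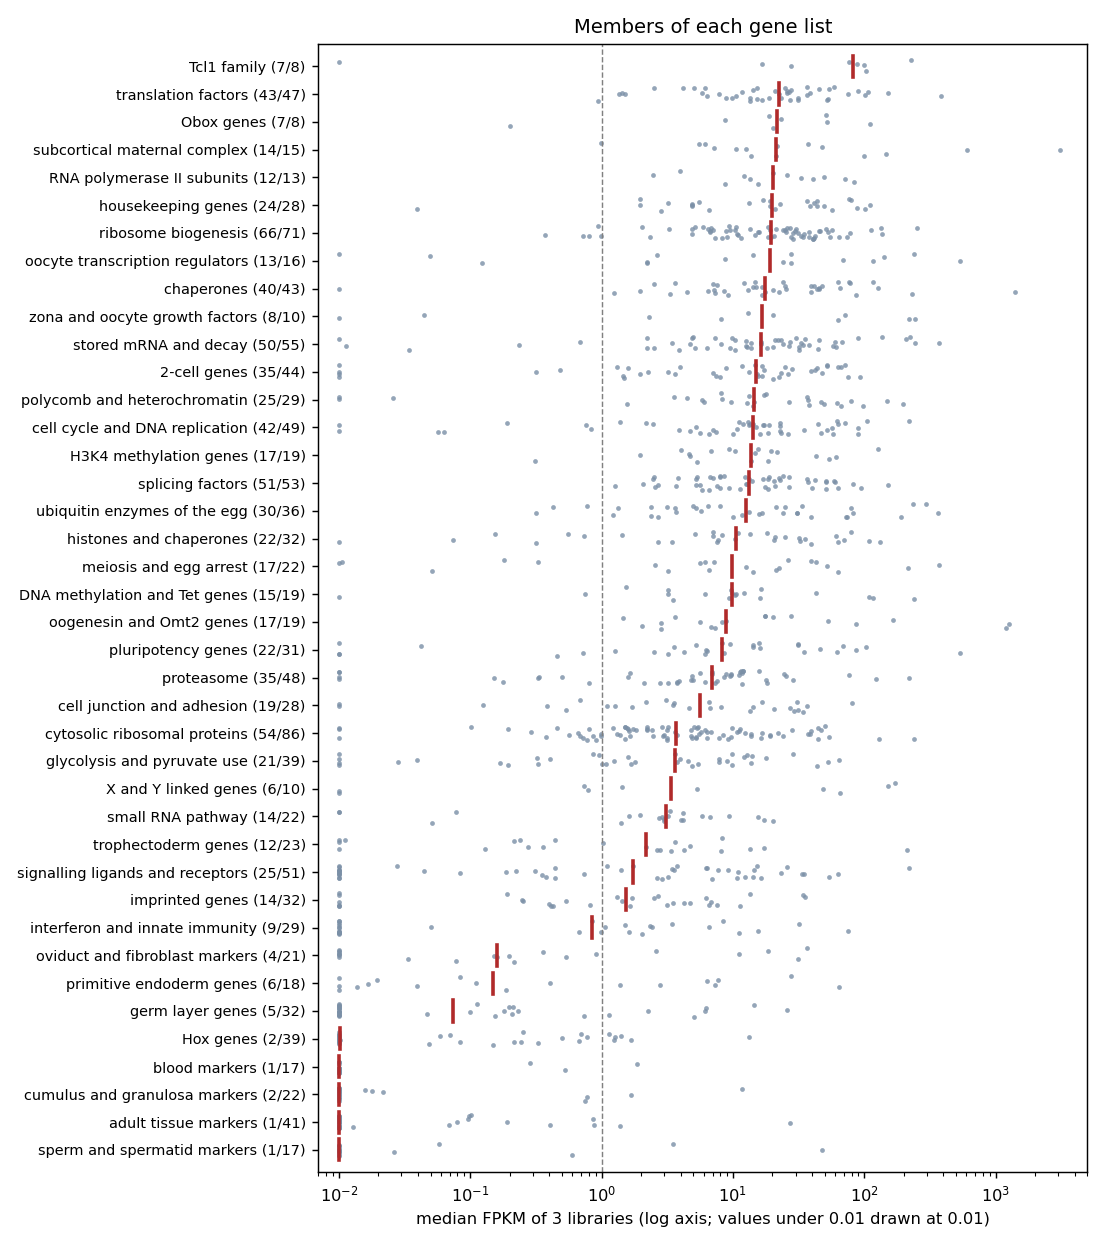
Each dot is the median FPKM of 1 gene over 3 libraries on a logarithmic axis, each row a gene list, the red bar the list's median, and the dashed line 1 FPKM. Counts in brackets are members detected of members with status OK; the rows run from a median of 82.6 FPKM for the Tcl1 family down to lists of later cell types whose medians lie at the left edge.

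Genes of the first lineages were partly present. Of the pluripotency list 22 of 31 were detected, with a median of 8.32 FPKM, led after Dppa3 by Gabpa (80.7, 126 and 103 FPKM), Tbx3 (124, 48.2 and 86.2 FPKM) and Sall4 (68.7, 64.3 and 79.9 FPKM). Pou5f1, the gene for OCT4, stood at 14.2, 11 and 21.1 FPKM, while Nanog was at 0.0423, 0.0756 and 0 FPKM. These last genes were chosen by name after their values were seen. Of the trophectoderm list 12 of 23 were detected and the median was 2.18 FPKM. Yap1, the Hippo pathway coactivator, stood far above the rest at 210, 215 and 211 FPKM, and Atp1b1, Gata2 and Tfap2c followed between 6.93 and 37.1 FPKM. The trophectoderm regulator Cdx2 was at 2.07, 1.02 and 0 FPKM, and the trophectoderm keratin genes Krt7 and Krt19 were listed at 0 in all 3 libraries. Some other regulators of the list were detected at low levels, among them Hand1, at 4.69, 4.66 and 4.70 FPKM, and Tfap2a, at 4.47, 3.40 and 2.75 FPKM. Gata3 and Elf5 were not detected.

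Of 18 primitive endoderm genes 6 were detected, with a median of 0.150 FPKM, which became 0.270 to 0.501 FPKM when any 1 library was left out. Dab2, an endocytic adaptor, stood at 61.7, 64.4 and 65.9 FPKM and Gata4 at 27.6, 26.3 and 29.99 FPKM, whereas Gata6 was at 0.942, 0.354 and 0.408 FPKM and Foxa2, Sox7 and Ttr were listed at 0 in all 3. Of 32 germ layer genes 5 were detected, with a median of 0.0736 FPKM, which became 0.137 to 0.228 FPKM when any 1 library was left out. They included Mesp2, a mesoderm factor, at 29.7, 23.9 and 25.9 FPKM, and Lhx1, a homeobox gene of the early mesoderm, at 14.5, 14.3 and 16.9 FPKM. Myod1, Cdx1, Mesp1, Cer1, Lefty1, Lefty2, Nog and Neurog1 were listed at 0 throughout. The levels of Mesp2 and Lhx1 were steady across libraries, and a steady level does not show that the protein is made.

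Markers of differentiated cells were under the threshold with few exceptions. Of 39 Hox genes 2 were detected: Hoxa7, at 13.2, 22.1 and 10.1 FPKM, and Hoxb9, at 3.86, 1.35 and 1.68 FPKM. Of 41 adult tissue markers 1 was detected, Vil1, the actin bundler of microvilli, at 39.98, 27.4 and 21 FPKM, while Alb, Ins1, Gcg, Mb, Tyr and Umod were among 18 listed at 0 in all 3. In the wider cumulus list 2 of 22 were detected, Amhr2 at 7.12, 11.8 and 12 FPKM and Tnfaip6 at 3.42, 1.68 and 1.67 FPKM. The sperm list had 1 of 17, Odf2, which is also a centrosome gene, at 36.1, 47.6 and 66.2 FPKM, and the blood list had 1 of 17, Cd68, at 1.85, 1.70 and 2.53 FPKM. The oviduct and fibroblast list had 4 of 21, and its leaders Cdh1 (36.8, 49.5 and 34.0 FPKM) and Epcam (19.4, 58.5 and 31.4 FPKM) are adhesion genes that embryos use as well. Also detected were Pax2, at 18.7, 10.9 and 20.3 FPKM, and Pecam1, given above. Which cells this RNA came from was not tested.

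Signalling and immune genes were partly present. Of 51 ligands and receptors 25 were detected, with a median of 1.72 FPKM, or 3.20 FPKM without replicate 2. After the oocyte factors Bmp15 and Gdf9 came the Wnt receptor Fzd7, at 64.1, 51.8 and 54.2 FPKM, and Kit, the receptor tyrosine kinase of germ cells, at 34.7, 41.7 and 29.1 FPKM. Of 29 interferon and innate immunity genes 9 were detected, beside 27.1% of all genes and 36.6% of protein-coding genes. Sp110, given above, led them, followed by Irf1 at 31.7, 36.0 and 12.2 FPKM and Ifitm3 at 15.6, 11.6 and 17.5 FPKM. A further 8 were listed at 0 in all 3, among them Ifnb1, Ifna1, Mx1 and Ifit1. Cell junction genes had 19 of 28 detected, led by the polarity gene Pard3 at 80.0, 154 and 80.4 FPKM. Imprinted genes had 14 of 32 detected, led by Phlda2 at 17.4, 57.9 and 35.3 FPKM and Mest at 37.3, 34.2 and 18.9 FPKM.

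Families named by symbol ranged from nearly all members detected to none. Detection stood at 20 of 21 Hnrnp genes, 10 of 11 Srsf genes, 53 of 59 Eif genes, 16 of 18 Kdm genes and 44 of 54 DEAD and DEAH box helicase genes. Middle values were 36 of 57 Rab genes, 168 of 371 Zfp genes, 36 of 77 mitochondrial ribosomal protein genes and 117 of 375 Slc transporter genes. Slc34a2, a phosphate transporter, led the Slc genes at 265, 222 and 226.98 FPKM. Within transcription factor families the contrast was wide, with 11 of 17 Klf genes detected, 13 of 44 Fox genes and 4 of 25 Sox genes. The shares of 31.2% for Slc, 29.5% for Fox and 16% for Sox genes lay below the 36.6% of protein-coding genes.

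At the other end, 3 of 1222 olfactory receptor genes and 1 of 528 vomeronasal receptor genes were detected, and 1148 and 447 of these were listed at 0 in every library. None of 16 trace amine receptor genes, 21 major urinary protein genes, 19 Wnt genes, 44 collagen genes of the Col prefix or 53 T cell receptor segments was detected. Keratin genes had 1 of 51, Krt84, at 7.66, 6.44 and 10.2 FPKM. Of the ion channel genes with Scn and Kcn prefixes 7 of 97 were detected, including Kcnk18 at 26.0, 14.7 and 25.9 FPKM. A gene not detected here was under 1 FPKM in at least 1 library. A listed 0 need not mean that no RNA was present: Gapdh, a gene every cell uses, was listed at 0 in replicate 2. With depth unknown, no limit on a true level can be given.

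Cytosolic ribosomal protein genes, often the most abundant mRNAs of growing cells, were low in these tables. Of 86 such genes 54 were detected, with a median of 3.71 FPKM, and 18 reached 10 FPKM in every library. Among these 86, Rpl41 led at 138, 240 and 269 FPKM and Rps9 followed at 96.9, 142 and 129 FPKM. The symbol rule left out Rpl36al, which had a larger median than Rps9, at 104, 211 and 133 FPKM. Pseudogenes with the symbol of a ribosomal protein gene summed to 906, 1590 and 1190 FPKM, against 891, 1272 and 1227 FPKM for the 86 genes. The pseudogene set was larger, with 198 members, of which 34 were detected, and its median was 0 FPKM. Rpl38-ps2 stood at 74.1, 149 and 140 FPKM while Rpl38 stood at 0.290, 0.315 and 0.194 FPKM, and Rps16-ps2 stood at 116, 90.9 and 130 FPKM while Rps16 stood at 3.07, 1.51 and 0.536 FPKM.

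Of 32 ribosomal protein pairs in which either member reached a median of 10 FPKM, the pseudogene was the higher in all 3 libraries in 20 and the parent in 11. Of 56 other pairs, the counts were 14 and 38. Mdm4 and its pseudogene Mdm4-ps were of the common kind, with Mdm4-ps at 55.9, 60.3 and 59.1 FPKM, whereas Anp32b-ps1, at 328, 752 and 245 FPKM, lay above Anp32b, at 124, 245 and 99.3 FPKM. Processed pseudogenes copy the mRNA of their parents, so reads can match both, and the level of either member of a pair is uncertain. The sources used here do not say how reads with several matches were assigned.

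**Figure D4:**
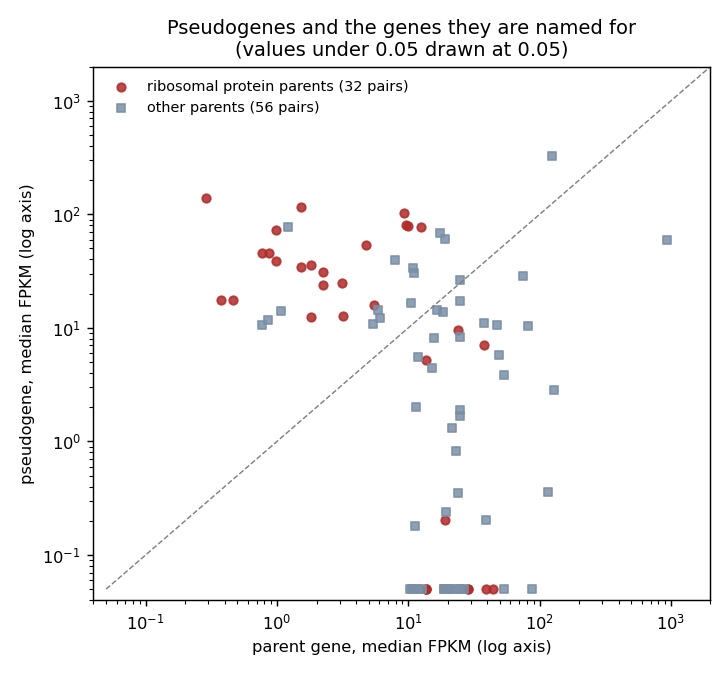
Median FPKM of a pseudogene against that of the gene it is named for, both axes logarithmic, for 32 ribosomal protein pairs and 56 other pairs in which either member reached 10 FPKM. The dashed line marks equal levels, and most ribosomal protein pairs lie above it.

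The 3 libraries agreed best on abundant genes. Over detected genes the median SD of log2(FPKM + 1) was 0.43. In classes of median FPKM it was 0.63 for 1 to 3 FPKM (2732 genes), 0.55 for 3 to 10, 0.41 for 10 to 30, 0.32 for 30 to 100 and 0.28 for 100 or more (278 genes). In the lowest class 80.9% of genes had a highest value at least 2 times the lowest, and in the highest class 19.1% did. Among genes inside their bounds, the SD between libraries was larger than the half-width of the bounds in each class, with medians of 58.1% and 37.1% of the level in the lowest class and 17.9% and 5.16% in the highest. The bounds were thus narrower than the spread between libraries, the more so for abundant genes.

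**Figure D5:**
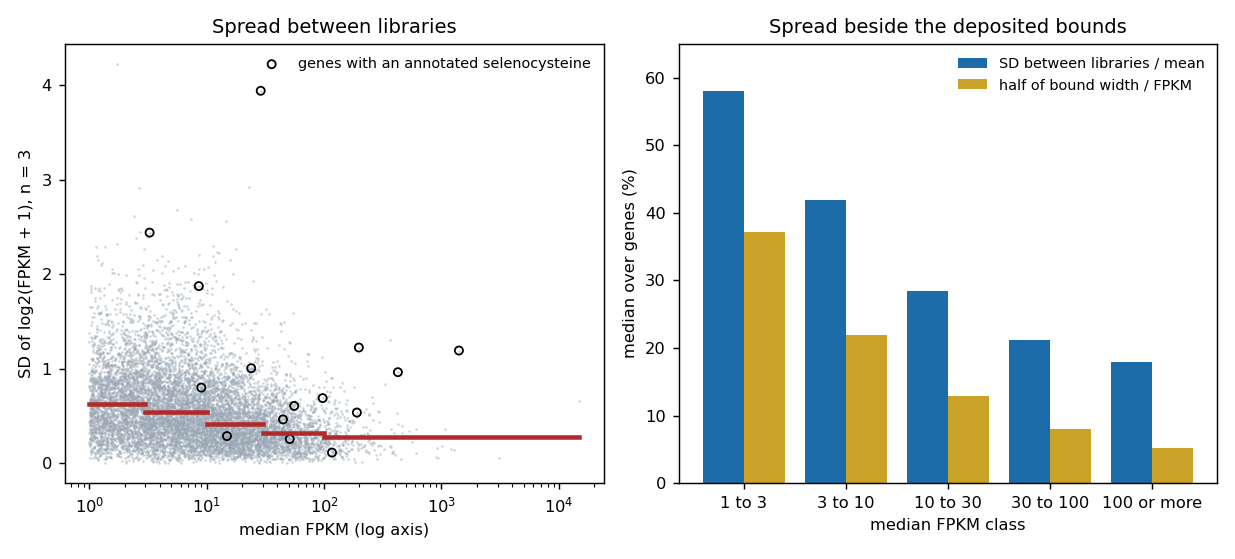
Left, SD of log2(FPKM + 1) over 3 libraries against median FPKM (logarithmic axis), with 1 dot per gene, red bars for the median of each class, and circles for genes with an annotated selenocysteine. Right, median SD as a percentage of the mean (blue) beside the half-width of the bounds as a percentage of FPKM (yellow), which falls from 37.1% to 5.16% across the classes while the SD falls from 58.1% to 17.9%.

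Replicate 2 stood somewhat apart. It was the library farthest from the gene's median for 3368 detected genes (39.3%), against 2746 for replicate 1 and 2447 for replicate 3, and the median absolute difference in log2(FPKM + 1) was 0.43 between replicates 1 and 3 but 0.53 and 0.49 between replicate 2 and each of these. Of the 100 most abundant genes of each library, 69 were shared by all 3, and 12, 21 and 14 were in the first 100 of replicate 1, 2 or 3 alone. Those of replicate 2 included Ybx1, which packages stored mRNA, at 77.7, 242 and 138 FPKM, and Ddx3x. By pairs, 82 of 100 genes were shared by replicates 1 and 3, 75 by replicates 1 and 2 and 73 by replicates 2 and 3. Leaving out any 1 library raised the count of detected genes, to between 9109 and 9276, the last without replicate 2. What set replicate 2 apart was not tested.

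The largest disagreements were of single genes. Among genes with a median of 10 FPKM or more, the SD of log2(FPKM + 1) was largest for Txnrd3, a thioredoxin reductase, at 28.9, 1.00 and 469 FPKM. The next were Gm3788, Gm17134, G530012D18Rik, Foxp1, Tma7-ps, Tmbim4, Zfp423, Taf9 and Tmem47. Foxp1, a forkhead repressor, stood at 0.479, 17.8 and 24.8 FPKM, Zfp423 at 11.4, 133 and 6.93 FPKM, and Taf9, a subunit of TFIID, at 26.9, 0.710 and 15.9 FPKM. The odd library was replicate 1 for Foxp1 and replicate 2 for Zfp423 and Taf9. At the other extreme, Actr1a, a dynactin subunit, stood at 28.0, 27.9 and 27.7 FPKM, a gene named for having the smallest SD.

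Selenoprotein genes had wide bounds, a group singled out after Vimp, Sepw1 and Txnrd3 were seen. GENCODE M21 annotates a selenocysteine in 24 genes of these tables, of which 12 were detected. For 9 of these 12, the half-width of the bounds exceeded the FPKM itself, against 0.269% of all detected genes. Their median SD of log2(FPKM + 1) was 0.65, and all had an upper bound of 252 FPKM or more in every library. BC089491, named Selenov in GENCODE M21 and not among the 12 detected, stood at 0.170, 0 and 1792 FPKM with an upper bound of 7148 FPKM in replicate 3. Vimp itself exceeded its upper bound in 2 of the 3 libraries.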

How the data were processed

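The authors deposited, per the file headers, 1 Cufflinks-style table per library with FPKM, its lower and upper bound and a status. Per the submitters' processing notes, Cufflinks, Trimmomatic, SAMtools, BWA, Picard and Bismark 12.5 were used across the series, with build mm10. Which tool aligned these reads, with what settings and gene annotation, is not given in the sources used here. Of 32287 gene IDs, 98.1% were found in GENCODE M21, which gave gene types. Rows with status LOWDATA (703 in each library) or FAIL (2 to 6) were left out, and the other 6 RNA-seq tables were not used. Starts were written counting from 1. A gene among the 40 most abundant and a listed marker are not reported here.

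Medians, ranks, shares and SDs of log2(FPKM + 1) were computed in Python 3.11.15 with pandas 2.3.3 and numpy 2.4.6, and the ranking and SD steps were tested on simulated data. No group was compared, and no test was run. Named genes were the 40 with the largest median, the leading 4 of each list, listed members at 0, the design's markers and the 10 with the largest SD among medians of 10 FPKM or more; other names were chosen after their values were seen. Members and lists were chosen with earlier results of these data known. Alternatives covered thresholds, pseudocount, scaling, ranking and leaving out each library.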

Additional observations from a re-analysis of the deposited data

How the results depend on the processing

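The count of 8561 detected genes stayed within 1.5 times under a threshold of 0.1 FPKM, detection in at least 2 libraries, a lower bound above 0, and protein-coding genes only, and fell to 3326 at a threshold of 10 FPKM. It was 9109 to 9276 with 1 library left out. The share of the 100 most abundant genes, 22.5%, moved by more than its SD without Yam1 (18%), with protein-coding genes only (18.9%) and with genes inside their bounds only (15.6%), all chosen after seeing the data, and was 21.7% to 24.4% with 1 library left out. The median SD of log2(FPKM + 1), 0.43, was 0.13 with no filter, which adds genes near 0, and 0.31 to 0.37 over pairs of libraries. Fewer values give a lower median SD at the same spread, so the figures over pairs cannot be set against 0.43. The overlap of the first 100 genes was 67.6% for the first 500 and 73.0% to 82.0% over pairs. The median of the list medians was 9.31 FPKM, and 17.4 FPKM over members at 1 FPKM or more. It was 9.24 to 9.97 FPKM with 1 library left out. Rescaling each library to 1 total moved 0 of 40 list medians by more than their SD between libraries, but taking only members at 1 FPKM or more moved 30 of 40, and leaving out 1 library at a time moved 36 and left 84 within it. No paired analysis was possible because only 1 group was described. With depth unknown, absence is limited to the 1 FPKM threshold, and levels of repeated genes, pseudogene parents and selenoprotein genes rest on read assignment that is not stated.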
